A study of Homo sapiens with 9 samples.

Results

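The genes examined here are the activin ligands *INHBA*, *INHBB* and *INHBE*, the secreted activin antagonists *FST* and *FSTL3*, and the activin receptors *ACVR1B*, *ACVR2A* and *ACVR2B*. These 8 genes were chosen by symbol out of 57736 gene rows, with the higher level of *INHBA* after PHF8 targeting already known. Their differences from the control group are therefore given as a description, with no p-value, and nothing is read from how many were called. Of the 8 genes, 7 passed the filter on low counts and entered a fit across 14614 genes, and *INHBB* did not.

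RNA-seq was performed in SKMEL-147 cells, an established human melanoma line, after CRISPR-Cas9 targeting of *PHF8*, which encodes a histone demethylase of the JmjC family. All cells carried Cas9 and a lentiviral single-guide RNA (sgRNA) with a green fluorescent protein reporter. The control group, sgScr, received a scrambled guide, and the groups sgPHF8-1 and sgPHF8-3 received different guides against *PHF8*. Each group had 3 libraries, A, B and C, described in the study's methods as biological replicates, and nothing in the sources used here describes the cells as single clones.

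Activins are dimers of inhibin beta chains and belong to the TGFβ superfamily. They bind a type II receptor (ACVR2A or ACVR2B), which recruits and phosphorylates a type I receptor (ACVR1B, also called ALK4), and the type I receptor phosphorylates SMAD2 and SMAD3. Follistatin (FST) and follistatin-like 3 (FSTL3) bind activin outside the cell and keep it from its receptors. Activin A, the dimer of the INHBA chain, shares SMAD2 and SMAD3 with TGFβ, and INHBE is best known as a product of hepatocytes.

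The guide target sites are shown because the contrast between the guides is the one in which the activin genes could be tested. Both were found once in GRCh37 with an adjacent NGG motif (capitals) and lie in coding exons of *PHF8*, the first at chrX:54069090-54069109 on the plus strand in exon 2 and the second at chrX:53966772-53966791 on the minus strand in exon 21. The scrambled guide had 0 exact sites of this kind.
sgPHF8 #1: gtcacactcgatcatgaagcGGG
sgPHF8 #3: tcctcctgagcctaaacaagAGG

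*PHF8* mRNA was lower with both guides, by unequal amounts. Its normalized read count, which is the raw count divided by a size factor of the library, was 655, 606 and 634 in sgScr A, B and C, 564, 571 and 565 in sgPHF8-1, and 400, 387 and 434 in sgPHF8-3. The 3 groups did not overlap. In edgeR's quasi-likelihood test *PHF8* fell by 10.3% with sgPHF8-1 (log2 fold change −0.16, standard error (SE) 0.054, adjusted p = 0.0272). It fell by 35.6% with sgPHF8-3 (log2 fold change −0.64, SE 0.057, adjusted p = 6.36e-09). The call for sgPHF8-1 was lost with DESeq2 (adjusted p = 0.123) and when sgScr A or C or sgPHF8-1 A or C was left out (adjusted p from 0.0572 to 0.118). The transcript level does not measure how much of the protein was lost.

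Libraries held 17366120 to 19838142 counts over genes, and the biological coefficient of variation was 2.87%. Within each group, libraries differed by more than counting noise (chi-square per gene from 1.34 to 4.12), and sgPHF8-1 B stood apart most from its own group, with the fewest genes detected (22427). Of the 8 melanocyte lineage markers, *SOX10* (mean 2771 normalized counts in sgScr) and *MITF* (253) had 10 or more counts in each library, whereas *MLANA* and *TYR* were at 0 in all 9. The 5 markers of dedifferentiated melanoma cells were all detected, and *AXL* had means of 27921, 27638 and 29234 in sgScr, sgPHF8-1 and sgPHF8-3. *NGFR* had means of 11693, 7199 and 9570, and the sum of the 5 was 43094 to 43793, 38058 to 39268 and 42076 to 43083. The melanocyte sum was 2965 to 3104 in sgScr, 2611 to 2765 in sgPHF8-1 and 2823 to 2886 in sgPHF8-3. Both sums were lowest in sgPHF8-1, without overlap. *SOX10* made up most of the melanocyte sum, with means of 2771, 2440 and 2559. Of the 5 dedifferentiation markers *NGFR* had the largest fall, and only *SOX9* was higher in sgPHF8-1 than in sgScr, with means of 287, 341 and 304. Markers of other cell types, 7 of 8 matched, summed to 40.9 to 51.5 normalized counts in sgScr, 20.7 to 32.5 in sgPHF8-1 and 25.5 to 38.9 in sgPHF8-3, and *CD3E* was at 0 throughout. That sum was mostly the keratin *KRT14*, and the part of these markers in the results was not tested.

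*INHBA* was by far the most abundant of the ligands in the control cells. Divided by exon length, normalized counts per kb in sgScr were 239 ± 3.95 for *INHBA* (SD, n = 3), 83.2 ± 9.28 for *FST*, 72.5 ± 4.32 for *ACVR1B*, 63.8 ± 2.37 for *ACVR2A*, 47.8 ± 2.22 for *ACVR2B* and 43.2 ± 2.21 for *FSTL3*. The other ligands were much lower, at 4.21 ± 1.69 for *INHBE* and 0.389 ± 0.165 for *INHBB*. In this order *FST* overlapped *ACVR1B* and *ACVR2B* overlapped *FSTL3*, while every other pair of neighbours was separated in all 3 control libraries. Exon length was taken over all annotated isoforms, so a gene that uses a short isoform is understated on this scale.

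*INHBA* (ENSG00000122641, GRCh37 chr7:41706766-41745432, minus strand) encodes the beta A chain of activin A. Its normalized read count was 2014, 1979 and 1948 in sgScr A, B and C, 3079, 3043 and 3122 in sgPHF8-1, and 2579, 2625 and 2669 in sgPHF8-3. The groups did not overlap, sgPHF8-1 was the highest and sgPHF8-3 lay between it and the control. Against sgScr the level was 1.56-fold with sgPHF8-1 (log2 fold change 0.64, SE 0.032) and 1.32-fold with sgPHF8-3 (0.41, SE 0.032), which restates the choice of the gene and was not tested. An annotated antisense transcript, *INHBA-AS1*, shares 248 bp of exon with *INHBA* but averaged 4 counts. In bulk RNA a higher level in all cells and a larger share of cells with a high level cannot be told apart.

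*INHBE* (ENSG00000139269, chr12:57846106-57853063), which encodes the beta E chain, showed the largest fold of the 7 fitted genes from a low base. Its normalized read count was 10.2, 18.7 and 9.49 in sgScr A, B and C, 38.5, 29.2 and 26.9 in sgPHF8-1, and 39.2, 58.4 and 50.7 in sgPHF8-3. All libraries with a *PHF8* guide were above all control libraries, and among the controls sgScr B was the highest. The fold against sgScr was 2.45 with sgPHF8-1 (log2 fold change 1.30, SE 0.29) and 3.82 with sgPHF8-3 (1.93, SE 0.26), and without sgScr B the log2 values became 1.67 and 2.31. *INHBE* reached the count cutoff in 2 of the 3 control libraries, and 3 were needed, so it entered the fit through the libraries where it was higher. In a count without strand, an antisense transcript that shares 499 bp of its exons could not be told apart from *INHBE*.

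*INHBB* (ENSG00000163083, chr2:121103712-121109379), which encodes the beta B chain, was barely detected. Its raw counts were 2, 1 and 1 in sgScr, 0, 3 and 3 in sgPHF8-1, and 0, 3 and 3 in sgPHF8-3. No difference could be resolved at this depth, and no fold is given.

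Both antagonists were higher with sgPHF8-1. *FST* (ENSG00000134363, chr5:52776456-52782964) had normalized read counts of 218, 211 and 258 in sgScr, 321, 318 and 312 in sgPHF8-1, and 347, 335 and 367 in sgPHF8-3. The 3 groups did not overlap and, unlike *INHBA*, *FST* was highest in sgPHF8-3. Its fold against sgScr was 1.38 with sgPHF8-1 (log2 fold change 0.47, SE 0.079) and 1.53 with sgPHF8-3 (0.61, SE 0.077). *FSTL3* (ENSG00000070404, chr19:676392-683392) was at 138, 125 and 129 in sgScr, 168, 164 and 184 in sgPHF8-1, and 173, 150 and 114 in sgPHF8-3. It was higher than control in each sgPHF8-1 library, with a fold of 1.31 (log2 fold change 0.39, SE 0.11). The sgPHF8-3 libraries ran from below the control range to above it, with a fold of 1.12 (0.16, SE 0.12).

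*ACVR2B* (ENSG00000114739, chr3:38495381-38534633), a type II receptor, was at 762, 712 and 779 in sgScr, 631, 629 and 636 in sgPHF8-1, and 668, 718 and 699 in sgPHF8-3. The sgPHF8-1 libraries were all below the control range, at 0.842 times its mean (log2 fold change −0.25, SE 0.05), whereas sgPHF8-3 overlapped the control (−0.11, SE 0.049). *ACVR1B* (ENSG00000135503, chr12:52345483-52390862), the type I receptor, was at 387, 435 and 408 in sgScr, 389, 418 and 398 in sgPHF8-1, and 366, 384 and 369 in sgPHF8-3. Its log2 fold change was −0.03 (95% interval −0.16 to 0.10) with sgPHF8-1 and −0.14 (−0.27 to −0.01) with sgPHF8-3.

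*ACVR2A* (ENSG00000121989, chr2:148602086-148688395), the other type II receptor, was at 427, 411 and 396 in sgScr, 411, 459 and 431 in sgPHF8-1, and 391, 439 and 412 in sgPHF8-3. The 3 groups overlapped, with log2 fold changes of 0.07 (95% interval −0.05 to 0.20) and 0.01 (−0.12 to 0.14). *ACVR2A* shares 431 bp of exon with *ORC4* on the opposite strand, which averaged 888 counts, so its level is uncertain unless strand was used in counting.

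**Figure D1:**
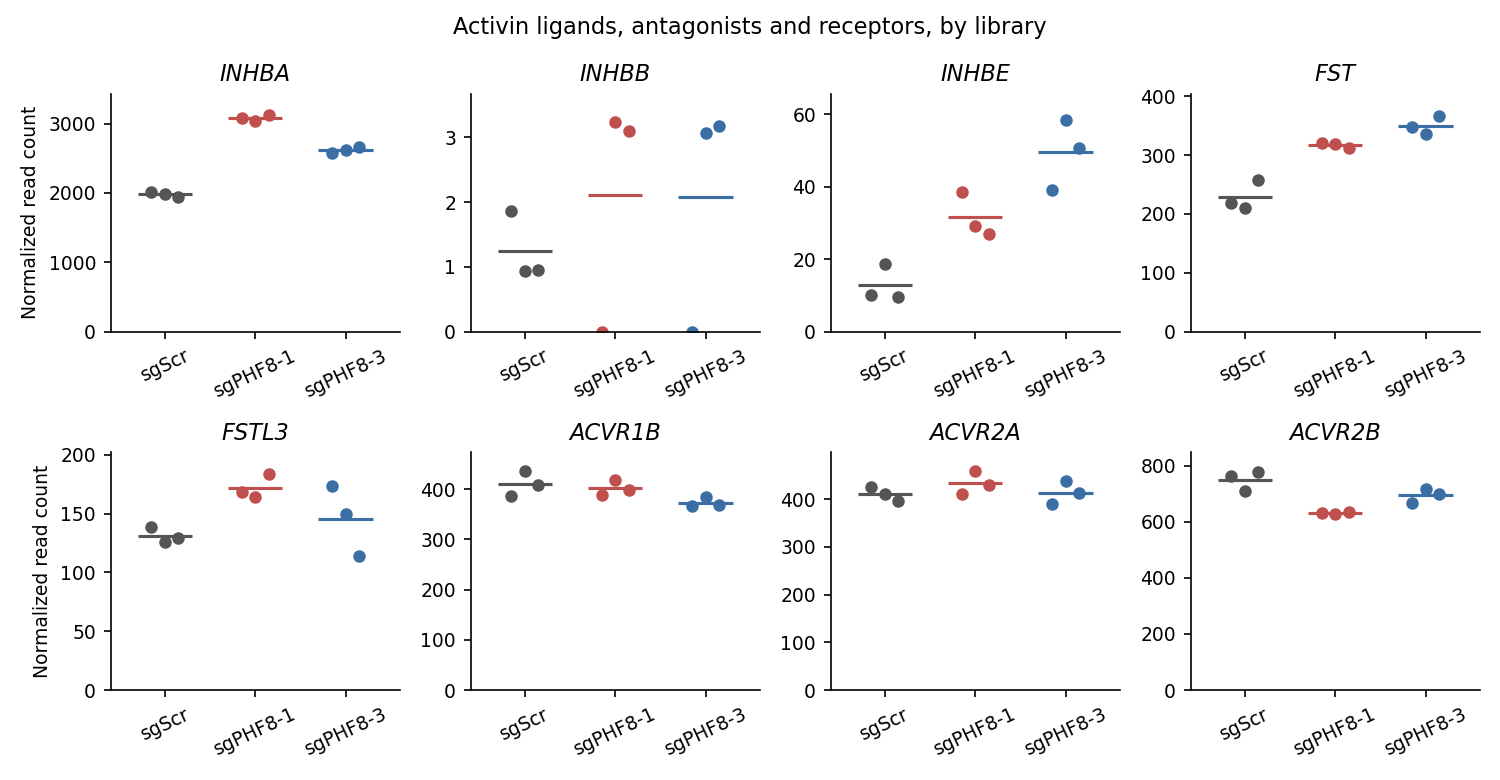
Normalized read count (y axis, from 0) of each of the 8 genes in every library of sgScr, sgPHF8-1 and sgPHF8-3 (x axis). Points are libraries and bars are group means. *INHBA* and *FST* are above the control in all 6 libraries with a *PHF8* guide, with *INHBA* highest in sgPHF8-1 (3043 to 3122) and *FST* highest in sgPHF8-3 (335 to 367), whereas *ACVR2A* overlaps between groups.

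Counted over the 7 fitted genes at an adjusted p of 0.05, 4 were called higher with sgPHF8-1 (*INHBA*, *INHBE*, *FST* and *FSTL3*) and 1 lower (*ACVR2B*), where 15.2% of all genes tested were called higher and 15.7% lower. With sgPHF8-3, 3 were called higher (*INHBA*, *INHBE* and *FST*) and 0 lower, where 9.48% of all genes were called higher and 9.78% lower. The genes were chosen on these contrasts, and *INHBE* entered the fit through the libraries where it was higher, so nothing is read from the counts. The median log2 fold change of the 7 genes was 0.39 with sgPHF8-1 and 0.16 with sgPHF8-3, where the median over all genes tested was 0.000282 and −0.000757. The contrasts share the 3 control libraries.

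**Figure D2:**
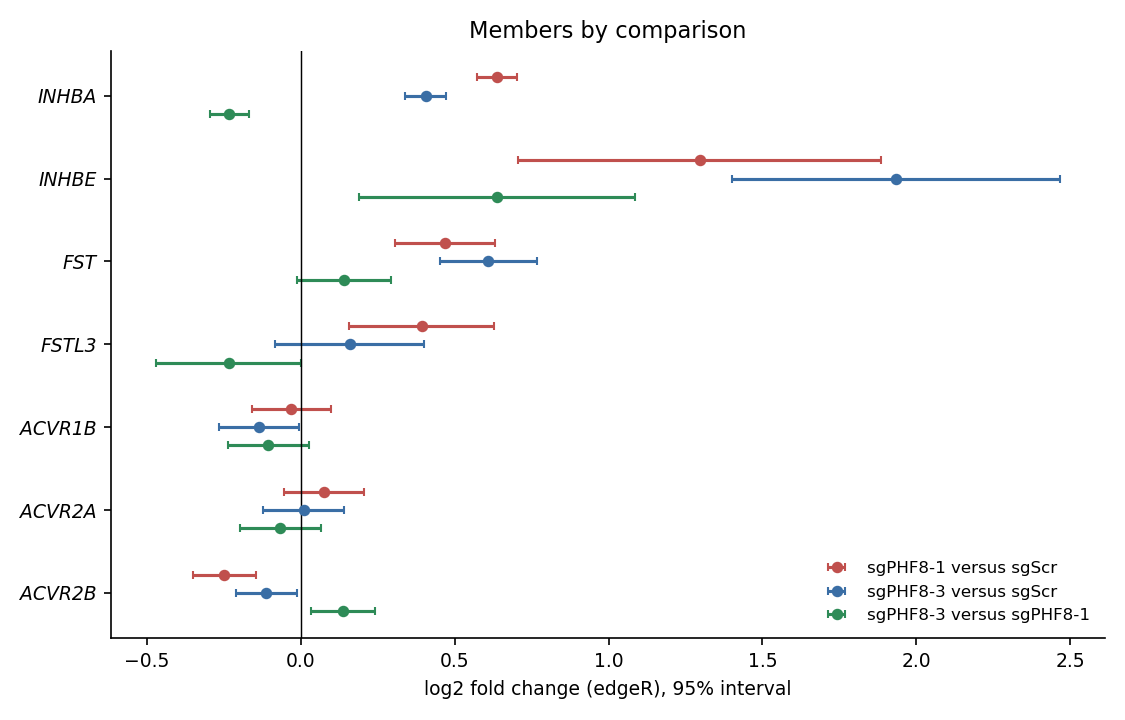
Log2 fold change (x axis) of the 7 fitted genes in sgPHF8-1 versus sgScr, sgPHF8-3 versus sgScr and sgPHF8-3 versus sgPHF8-1. Points are edgeR estimates and bars are 95% intervals. *INHBA*, *INHBE* and *FST* lie to the right of 0 with their intervals in both contrasts with sgScr, the interval of *FSTL3* with sgPHF8-3 crosses 0 (−0.08 to 0.40), and between the guides the interval of *INHBA* is below 0 (−0.30 to −0.17) while that of *INHBE* is above 0 (0.19 to 1.09).

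The contrast between the guides played no part in the choice of the genes, and here each gene was tested. *INHBA* was lower in sgPHF8-3 than in sgPHF8-1 in each library, by a log2 fold change of −0.23 (SE 0.031, 95% interval −0.30 to −0.17, edgeR adjusted p = 1.44e-05). Over 15 alternative settings its log2 fold change ran from −0.25 to −0.22 and its adjusted p from 5.97e-08 to 0.000341. It was the only one of the 7 genes called, 0 higher and 1 lower, where 5.83% of all genes tested were called higher and 4.74% lower. Under a rule with an unadjusted p below 0.05 and a minimum absolute log2 fold change of 0.25, *INHBA* was not called, being under that size, and *INHBE* was called higher in its place. The median log2 fold change of the 7 genes was −0.07.

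The remaining members did not pass the threshold between the guides, which does not show that their levels were alike. *INHBE* was higher in each sgPHF8-3 library than in each sgPHF8-1 library (log2 fold change 0.64, 95% interval 0.19 to 1.09, edgeR adjusted p = 0.0605). It was called with no filter on low counts (adjusted p = 0.0338), without sgPHF8-1 A (0.0455) and without sgPHF8-3 A (0.0269), and its adjusted p reached 0.262 without sgPHF8-3 B. *ACVR2B* and *FST* also had separate groups, both higher in sgPHF8-3, with log2 fold changes of 0.14 (0.03 to 0.24, adjusted p = 0.0873) and 0.14 (−0.01 to 0.29, adjusted p = 0.254). *ACVR1B* had separate groups too, lower in sgPHF8-3, at −0.10 (−0.24 to 0.03, adjusted p = 0.344). The share of all genes with separate groups was not counted, so nothing is read from the separation of these genes. *ACVR2A*, whose groups overlapped, was at −0.07 (−0.20 to 0.07, adjusted p = 0.595). *FSTL3* was at −0.23 (−0.47 to 0.00, adjusted p = 0.209), and this value turned on single sgPHF8-3 libraries, with an adjusted p of 0.0416 without A and 0.72 without C.

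The ratio of *INHBA* to the sum of *FST* and *FSTL3*, the ligand over its antagonists, was taken per kb in each library. It was 1.94, 2.03 and 1.72 in sgScr A, B and C, 2.16, 2.16 and 2.17 in sgPHF8-1, and 1.70, 1.85 and 1.89 in sgPHF8-3. The sgPHF8-1 libraries were all above the control range, and the sgPHF8-3 libraries overlapped it. These are mRNA ratios and say nothing of the amounts of free activin protein.

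The promoters of *INHBA* and *FST* are shown because these genes were both higher with each guide, and because the elements searched are those bound by factors of this pathway and of stress signaling. The windows run from 250 bases before to 50 after a RefSeq transcription start (GRCh38.p14), and 7 of the 8 genes had an entry. Both strands were searched for the CRE (TGACGTCA), the AP-1 element (TGANTCA), an ATF4 element (TGATGNAA), the SMAD palindrome (GTCTAGAC) and the CAGA box (CAGACA), with matches in capitals. The first line is chr7:41703041-41703340 on the minus strand and the second is chr5:53480379-53480678 on the plus strand.
INHBA: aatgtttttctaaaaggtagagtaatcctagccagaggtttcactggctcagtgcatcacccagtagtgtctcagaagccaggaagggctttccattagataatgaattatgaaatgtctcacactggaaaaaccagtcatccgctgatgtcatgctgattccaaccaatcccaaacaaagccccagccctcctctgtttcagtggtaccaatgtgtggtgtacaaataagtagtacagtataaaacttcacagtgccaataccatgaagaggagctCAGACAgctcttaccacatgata
FST: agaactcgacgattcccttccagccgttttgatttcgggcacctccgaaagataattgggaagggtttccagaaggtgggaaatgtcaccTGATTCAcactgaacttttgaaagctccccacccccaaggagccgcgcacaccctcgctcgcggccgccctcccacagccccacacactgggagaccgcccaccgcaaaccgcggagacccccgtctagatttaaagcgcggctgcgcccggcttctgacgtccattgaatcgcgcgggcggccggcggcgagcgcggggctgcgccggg

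The *INHBA* window, with a GC content of 43.3%, held 1 CAGA box, 28 bases after the start. The *FST* window, with a GC content of 63.7%, held 1 AP-1 element at position −160 from the start. Of the other windows, a second start of *ACVR1B* held 1 CAGA box, and those of *INHBB*, *FSTL3*, *ACVR2A*, *ACVR2B* and the first start of *ACVR1B* held none of the elements. Of 35116 promoter windows of this length, 16.9% held a CAGA box and 7.71% an AP-1 element, while the CRE was in 1.85%, the ATF4 element in 3.62% and the SMAD palindrome in 0.202%. Overlap between these elements was not removed. A match describes letters only.

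Of 9 related ligands, a list that leaves out TGFβ itself, 8 reached at most 9 counts in any library. Only *GDF11*, which encodes a ligand close to myostatin, passed the filter, and it was not called in any contrast, with a log2 fold change of −0.05 with sgPHF8-1 and −0.04 with sgPHF8-3. *INHA*, which encodes the alpha chain that turns an activin chain into inhibin, reached at most 8 counts in any library, and *MSTN* at most 9. The lists of other pathway genes were drawn up with earlier results of these data known, and the choice of the activin genes rested in part on lower TGFβ pathway genes in the same contrasts, so their counts against sgScr are descriptive too.

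Of 11 other receptors and coreceptors 9 were fitted, of which 0 were called higher and 3 lower with sgPHF8-1 and 0 higher and 2 lower with sgPHF8-3, with median log2 fold changes of −0.11 and −0.06. Over all genes tested 15.2% were called higher and 15.7% lower with sgPHF8-1, and 9.48% and 9.78% with sgPHF8-3. *TGFBR1*, the type I receptor for TGFβ, which also signals to SMAD2 and SMAD3, had a log2 fold change of −0.73 (SE 0.033) with sgPHF8-1 and −0.33 (SE 0.032) with sgPHF8-3. *BMPR2*, a type II receptor for BMPs, was at −0.29 (SE 0.048) and −0.26 (SE 0.048). *ACVR1C* (ALK7), a type I receptor of the same branch as ACVR1B, was at means of 21.3, 19.6 and 18.1 normalized counts in sgScr, sgPHF8-1 and sgPHF8-3 and was not called. Between the guides *TGFBR1* was higher in sgPHF8-3 by a log2 fold change of 0.41 (SE 0.033, edgeR adjusted p = 6.65e-09), the opposite direction to *INHBA*.

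Of 10 proprotein convertases and other extracellular regulators 4 were fitted. With sgPHF8-1, 1 was called higher (*FSTL1*, a follistatin-like glycoprotein, log2 fold change 0.14) and 1 lower (*PCSK5*, −0.65), and with sgPHF8-3 0 were called higher and 1 lower (*FURIN*, −0.12, a call lost with DESeq2 and without sgScr B or sgPHF8-3 C). Under the rule with a minimum absolute log2 fold change of 0.25, *FURIN* was under that size and *PCSK5* (−0.27) was called lower with sgPHF8-3 in its place. Over all genes tested 15.2% were called higher and 15.7% lower with sgPHF8-1, 9.48% and 9.78% with sgPHF8-3, and 5.83% and 4.74% between the guides. FURIN and PCSK5 are proteases that cleave precursors of the TGFβ superfamily. Between the guides *PCSK5* was higher in sgPHF8-3 (log2 fold change 0.38, SE 0.11, edgeR adjusted p = 0.0234, a call lost without sgPHF8-1 C, sgPHF8-3 A or sgPHF8-3 B) and *FSTL1* lower (−0.18, SE 0.034, edgeR adjusted p = 0.00123).

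Of a list of 12 SMAD2/3 transducers, which also holds inhibitors of SMAD signaling such as *SMURF2*, 11 were fitted. With sgPHF8-1, 2 were called higher and 5 lower, and with sgPHF8-3, 0 were called higher and 1 lower, with median log2 fold changes of −0.09 and −0.04. The 2 called higher were *DRAP1* (0.12) and *SMURF2* (0.09). Only 1 was called higher with sgPHF8-1 with no filter on low counts, or when sgScr A, B or C or sgPHF8-1 A was left out. The number called with sgPHF8-3 was 4 without sgPHF8-1 B and 3 without sgPHF8-3 C. Over all genes tested 15.2% were called higher and 15.7% lower with sgPHF8-1, and 9.48% and 9.78% with sgPHF8-3. *SMAD3*, the receptor-activated SMAD shared by activin and TGFβ, was at −0.45 (SE 0.033) with sgPHF8-1 and −0.29 (SE 0.033) with sgPHF8-3. Between the guides it was higher in sgPHF8-3 by 0.16 (SE 0.034, edgeR adjusted p = 0.00302), the 1 transducer called, where 5.83% of all genes were called higher and 4.74% lower.

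Transcripts that SMAD2 and SMAD3 commonly induce were called in both directions. Of 12 such targets 10 were fitted, with 3 called higher and 6 lower with sgPHF8-1 and 1 higher and 4 lower with sgPHF8-3, and medians of −0.14 and −0.08. The shares over all genes tested were 15.2% higher and 15.7% lower with sgPHF8-1, and 9.48% and 9.78% with sgPHF8-3. *NEDD9*, which encodes a focal adhesion scaffold, was at −0.95 (SE 0.079) and −0.43 (SE 0.073), and *PMEPA1*, which encodes a feedback inhibitor of TGFβ signaling, at −0.63 (SE 0.033) and −0.42 (SE 0.033). *CTGF*, which encodes a matricellular protein, was higher with both guides, at 0.32 (SE 0.035) and 0.38 (SE 0.034). Between the guides 3 targets were called higher and 3 lower, where 5.83% and 4.74% of all genes were. *CDKN1A*, which encodes the cell cycle inhibitor p21, had the largest difference, lower in sgPHF8-3 by a log2 fold change of −0.53 (SE 0.033, edgeR adjusted p = 4.68e-11), and against sgScr it was called in opposite directions, at 0.33 (SE 0.033) with sgPHF8-1 and −0.20 (SE 0.033) with sgPHF8-3. In the same contrast between the guides *NEDD9* (0.52, adjusted p = 0.000166) and *PMEPA1* (0.21, adjusted p = 0.000113) were higher.

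Genes of the ATF4 stress response were included because *INHBE* is known to respond to this pathway in other cells. All 10 were fitted, with 8 called higher and 1 lower with sgPHF8-1 and 7 higher and 1 lower with sgPHF8-3, and medians of 0.29 and 0.35. Over all genes tested 15.2% were called higher and 15.7% lower with sgPHF8-1, and 9.48% and 9.78% with sgPHF8-3. This list too was drawn up with earlier results of these data known, so its counts against sgScr are descriptive. *CHAC1*, which encodes a glutathione-degrading enzyme, was at 0.89 (SE 0.12) and 0.97 (SE 0.12), and *ASNS*, the asparagine synthetase gene, at 0.71 (SE 0.068) and 0.65 (SE 0.068). The lower gene in each was *DDIT4*, which encodes an inhibitor of mTORC1, at −0.67 (SE 0.041) and −0.52 (SE 0.04). Between the guides 3 were called higher in sgPHF8-3 and 0 lower, where 5.83% and 4.74% of all genes were. The 3 were *TRIB3* (0.16, SE 0.035, edgeR adjusted p = 0.00417, and 0.0187 with DESeq2), *ATF3*, a stress-induced transcription factor gene (0.37, SE 0.11, edgeR adjusted p = 0.0369), and *DDIT4* (0.15, SE 0.043, edgeR adjusted p = 0.0208, and 0.0545 with DESeq2). The number called was 1 without sgPHF8-1 A, without sgPHF8-3 A and with DESeq2, which gave *ATF3* no adjusted p.

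**Figure D3:**
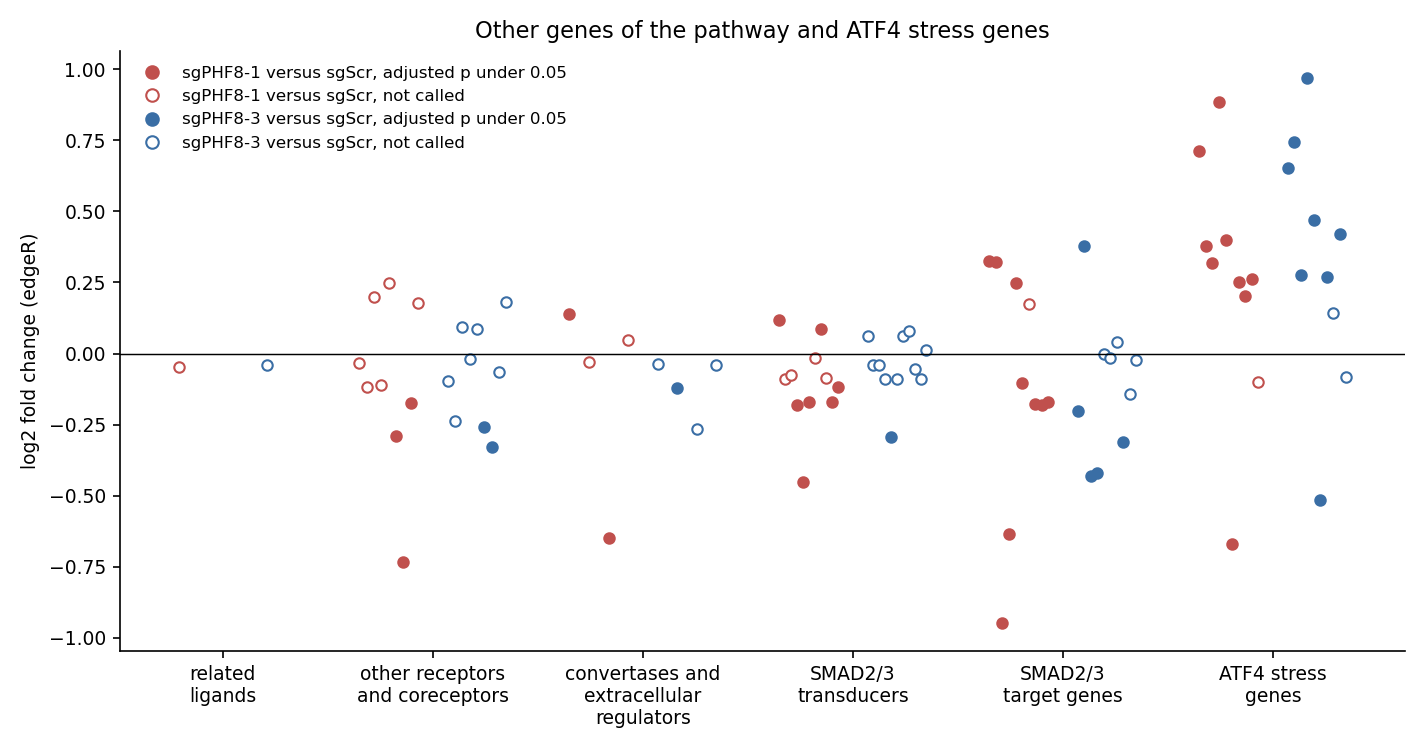
Log2 fold change against sgScr (y axis) of each fitted gene of 6 lists (x axis), with sgPHF8-1 in red and sgPHF8-3 in blue. Filled points are genes called at an adjusted p of 0.05. Of the 9 other receptors 0 are called higher and 3 and 2 lower with sgPHF8-1 and sgPHF8-3, the SMAD2/3 targets spread to both sides of 0, and 8 and 7 of the 10 ATF4 stress genes are called higher. Over all genes tested, 15.2% and 9.48% were called higher and 15.7% and 9.78% lower. The lists were drawn up with earlier results of these data known.

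The genes with the profile closest to *INHBA* were *AOX1* (aldehyde oxidase), *LCP1* (the actin bundler L-plastin), *RND3*, *FTL* (ferritin light chain) and *SERPINB7* (a serpin). Likeness was the root mean square difference of log2 CPM (counts scaled to a common library size), centred on each gene's mean over the 9 libraries, among 14267 genes, and was 0.0351, 0.0363, 0.0522, 0.0588 and 0.0593 in that order. Each of the 5 was highest in sgPHF8-1 and lowest in sgScr, with log2 fold changes against sgScr of 0.54 to 0.67 with sgPHF8-1 and 0.32 to 0.43 with sgPHF8-3. The 5 were chosen for likeness to *INHBA* over these libraries, so this order and these folds restate the choice and were not tested. No other member was among the 5. Of the 14267 genes *FST* ranked 507, *FSTL3* 1227, *ACVR2A* 3573, *ACVR1B* 7435, *ACVR2B* 10839 and *INHBE* 14051. This distance also grows with a gene's counting noise, which is larger for a gene as low as *INHBE*.

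**Figure D4:**
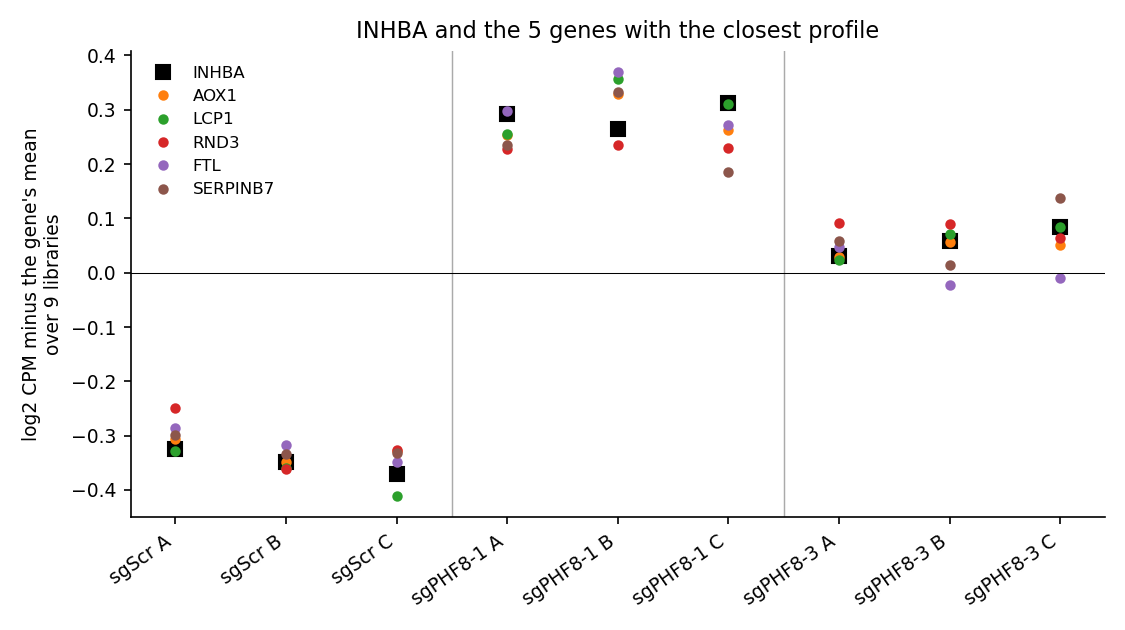
Log2 CPM minus the gene's own mean over the 9 libraries (y axis) for *INHBA* (black squares) and the 5 genes closest to it (colored points), by library (x axis). All 6 genes lie below 0 in sgScr and at 0.19 or above in sgPHF8-1, and sgPHF8-3 lies between, with *INHBA* at 0.03, 0.06 and 0.08. The 5 genes were chosen for this likeness.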

How the data were processed

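RNA was taken from SKMEL-147 cells for 9 libraries in 3 groups. Per the labels and the study's methods, the authors removed ribosomal RNA, prepared ScriptSeq libraries, aligned reads to hg19 with STAR and counted reads per gene, with HTSeq and DESeq2 named in the submitters' processing notes. The annotation and strand setting of the counting are not given in the sources used here. The deposited files hold raw counts and a signal table of normalized counts, which equals the raw counts divided by DESeq2 size factors (largest difference 3.95e-05 over 95 genes).

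Raw counts of all 9 libraries were fitted in 1 model with edgeR 4.0.16 (R 4.3.3), with TMM scaling, filterByExpr (10 counts at the median library size in at least 3 libraries), quasi-likelihood F tests and Benjamini-Hochberg adjustment over 14614 genes. Genes were called at an adjusted p of 0.05. The fit was tested on simulated data. Alternatives used DESeq2 1.42.0, limma 3.58.1 on log2 of normalized counts plus 1, other scaling, filters, samples and call rules, a replicate block, and the omission of each library. Exon lengths and coordinates came from GENCODE on GRCh37, and promoters from RefSeq on GRCh38.p14. The members and gene lists were chosen with earlier results of these data known. Named genes were all members, *PHF8*, and, for each list, up to 3 genes called in 1 direction with both guides with the largest mean change, the gene with the largest difference of those called between guides, and the 5 genes closest to *INHBA*. *FSTL1*, *FURIN*, *ACVR1C*, *GDF11*, *INHA*, *MSTN*, *DRAP1*, *SMURF2* and *TRIB3* were named after their values were seen. With 3 libraries a group, p-values cover the spread between these libraries.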

Additional observations from a re-analysis of the deposited data

Results flagged for a closer look

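For several named genes the effect against sgScr differed between the guides, as tested by the contrast of sgPHF8-3 with sgPHF8-1 over all genes (edgeR, adjusted p below 0.05, n = 3 libraries a group). Among the activin genes this was *INHBA* alone, with a log2 fold change of −0.23. In the other lists *TGFBR1* differed by 0.41, *PCSK5* by 0.38, *SMAD3* by 0.16, *NEDD9* by 0.52, *PMEPA1* by 0.21, *DDIT4* by 0.15, *TRIB3* by 0.16 and *ATF3* by 0.37, all higher in sgPHF8-3, and *CDKN1A* by −0.53 and *FSTL1* by −0.18, both lower in sgPHF8-3. *PHF8* mRNA was itself lower in sgPHF8-3 than in sgPHF8-1 (log2 fold change −0.48, adjusted p = 3.86e-06), and its part in these differences was not tested.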

How the results depend on the processing

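The numbers of genes called were 4513 for sgPHF8-1 versus sgScr, 2814 for sgPHF8-3 versus sgScr and 1544 between the guides. With DESeq2 they were 3095, 1706 and 915. With an unadjusted p below 0.05 and an absolute log2 fold change above 0.25, they were 2205, 1393 and 835, and the share called higher against sgScr went from 49.2% to 37.1% with sgPHF8-1 and to 34.6% with sgPHF8-3. With 1 library left out, the count between the guides ran from 923 (without sgPHF8-3 B) to 1467 and was 983 without sgPHF8-3 C. The cause of these changes was not tested. The replicate letters did not pair the libraries: deviations from group means correlated at −0.171 to 0.148 over 9 same-letter pairs and at −0.227 to 0.292 over 18 others. A replicate block gave 4395, 2698 and 1481 genes and changed no call of a member.

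No log2 fold change of a called member changed sign. Without sgPHF8-1 B, the numbers of members called were 5, 3 and 1, as with all libraries. The number called between the guides was 2 with no filter on low counts or without sgPHF8-1 A and 3 without sgPHF8-3 A. Under the rule with a fold minimum, 4 members were called higher and 0 lower with sgPHF8-1, *ACVR2B* being lost, and 1 higher and 0 lower between the guides, *INHBA* being lost and *INHBE* called. That rule left 1 of 7 SMAD2/3 transducers, 4 of 9 targets and 1 of 2 extracellular regulators called with sgPHF8-1, and 0 transducers, 3 targets, 1 regulator and 1 ATF4 stress gene between the guides. With sgPHF8-3, the number of transducers called was 4 with only the compared groups fitted or without sgPHF8-1 B, 3 without sgPHF8-3 C, and 2 with limma or without sgPHF8-1 C, against 1. That of extracellular regulators was 0 with DESeq2 or without sgScr B or sgPHF8-3 C and 2 with only the compared groups fitted or without sgPHF8-1 B, against 1. Between the guides, *PCSK5* was not called without sgPHF8-1 C, sgPHF8-3 A or sgPHF8-3 B, 2 receptors were called without sgPHF8-1 C and 2 transducers without sgPHF8-1 A, against 1 of each, and 1 ATF4 stress gene in place of 3 without sgPHF8-1 A or sgPHF8-3 A. With DESeq2, 1 ATF4 stress gene was called there, *DDIT4* being lost (adjusted p = 0.0545), and neither *PCSK5* nor *ATF3* had an adjusted p. DESeq2 also gave none for *INHBE* in the contrasts with sgPHF8-3 or for *FSTL3* between the guides, and called 2 members with sgPHF8-3. Depth limits *INHBB*, at no more than 3 counts in any library, and *INHBE*.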
